A study of Homo sapiens with 6 samples.

Results

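The BCL2 family decides whether a cell under stress lives or dies, by controlling the release of proteins from mitochondria. The accessible chromatin around 7 of its genes was compared across 6 established human T-cell acute lymphoblastic leukaemia (T-ALL) lines, namely TALL-1, MOLT-4, KOPT-K1, HBP-ALL, DND-41 and CCRF-CEM. ATAC-seq, in which the Tn5 transposase inserts sequencing adapters into open DNA, was run on cultures in RPMI-1640 medium with serum, with 1 library per line. A member was any interval of the 6 deposited peak lists that overlapped a window around BCL2, BCL2L1, MCL1, BCL2A1, BCL2L11, PMAIP1 or BBC3 in hg19 coordinates. The 7 windows span 675 kb. They held 123 intervals of 116055 in all, and these joined into 41 regions of 40110 when intervals of different lines that shared at least 1 bp were merged. No line has a replicate, so the values below describe 6 libraries, no test between lines was possible, and differences have no replicate check.

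As background, BCL2, BCL2L1 (whose long product is BCL-XL), MCL1 and BCL2A1 encode survival proteins that hold the pore-forming members BAX and BAK in check. BCL2L11 (BIM), PMAIP1 (NOXA) and BBC3 (PUMA) encode BH3-only proteins, which bind the survival proteins and so favour death. In thymocyte development BCL-XL is the main survival protein of the immature double-positive stage, BCL2 is high in mature T cells, and in mice BIM is needed to delete self-reactive thymocytes. NOXA binds MCL1 and the BCL2A1 protein by preference, and NOXA and PUMA are both induced by p53.

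The windows were set by coordinates, and no annotation of that build was used, so a region is named here by its window and its order along the chromosome and is not assigned to a promoter, exon or intron. In the RefSeq gene order (GRCh38.p14) each gene has neighbours to which a region could belong: PHLPP1 and KDSR at BCL2, COX4I2 and TPX2 at BCL2L1, LOC124904417 and ENSA at MCL1, ST20-MTHFS and ZFAND6 at BCL2A1, ACOXL and LOC124907867 at BCL2L11, CCBE1 and MC4R at PMAIP1, and SAE1 and CCDC9 at BBC3.

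Sequences are shown for 4 of the genes to set CpG-rich starts beside CpG-poor ones, since CpG content often goes with open chromatin at promoters: of the matched entries PMAIP1 had the most CpG and BCL2A1 the fewest, with BCL2 and BBC3 between them. They are the 250 bases before the annotated start in RefSeq (GRCh38.p14), on the gene's own strand, with each CpG in capitals. They were not placed on the hg19 regions described below.
BCL2: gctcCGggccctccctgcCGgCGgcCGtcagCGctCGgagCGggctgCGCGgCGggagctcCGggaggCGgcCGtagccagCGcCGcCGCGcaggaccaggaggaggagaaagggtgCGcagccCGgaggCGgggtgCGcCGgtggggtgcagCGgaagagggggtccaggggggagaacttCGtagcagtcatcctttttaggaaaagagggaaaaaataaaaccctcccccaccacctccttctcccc
PMAIP1: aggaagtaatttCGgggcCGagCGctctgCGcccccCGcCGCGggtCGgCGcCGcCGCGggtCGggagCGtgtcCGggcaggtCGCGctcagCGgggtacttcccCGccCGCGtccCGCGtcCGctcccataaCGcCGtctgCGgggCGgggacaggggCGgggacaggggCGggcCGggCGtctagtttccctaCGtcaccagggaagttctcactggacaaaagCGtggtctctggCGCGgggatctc
BCL2A1: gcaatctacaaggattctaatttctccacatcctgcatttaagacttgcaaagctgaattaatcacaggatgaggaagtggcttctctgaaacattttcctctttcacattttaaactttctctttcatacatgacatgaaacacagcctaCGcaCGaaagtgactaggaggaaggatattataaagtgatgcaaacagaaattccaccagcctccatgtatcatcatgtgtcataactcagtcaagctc
BBC3: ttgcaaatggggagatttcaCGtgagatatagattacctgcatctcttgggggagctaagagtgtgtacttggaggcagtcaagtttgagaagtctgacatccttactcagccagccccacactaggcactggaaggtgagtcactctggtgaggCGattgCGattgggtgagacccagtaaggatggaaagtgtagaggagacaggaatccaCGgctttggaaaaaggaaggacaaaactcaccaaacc

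The PMAIP1 stretch held 36 CpG and the BCL2 stretch 24, whereas the BBC3 stretch held 4 and the BCL2A1 stretch 2. The median over 35116 RefSeq promoters of that length was 11. As few CpG as at BCL2A1 occurred in 22.9% of those promoters, and as few as at BBC3 in 34.3%. Of the entries not printed, BCL2L11 held 34 and the pair for BCL2L1 held 17 and 12; 6 of the 7 genes matched an entry, and MCL1 did not. The motif counted was CG, which reads the same on both strands.

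**Figure D1:**
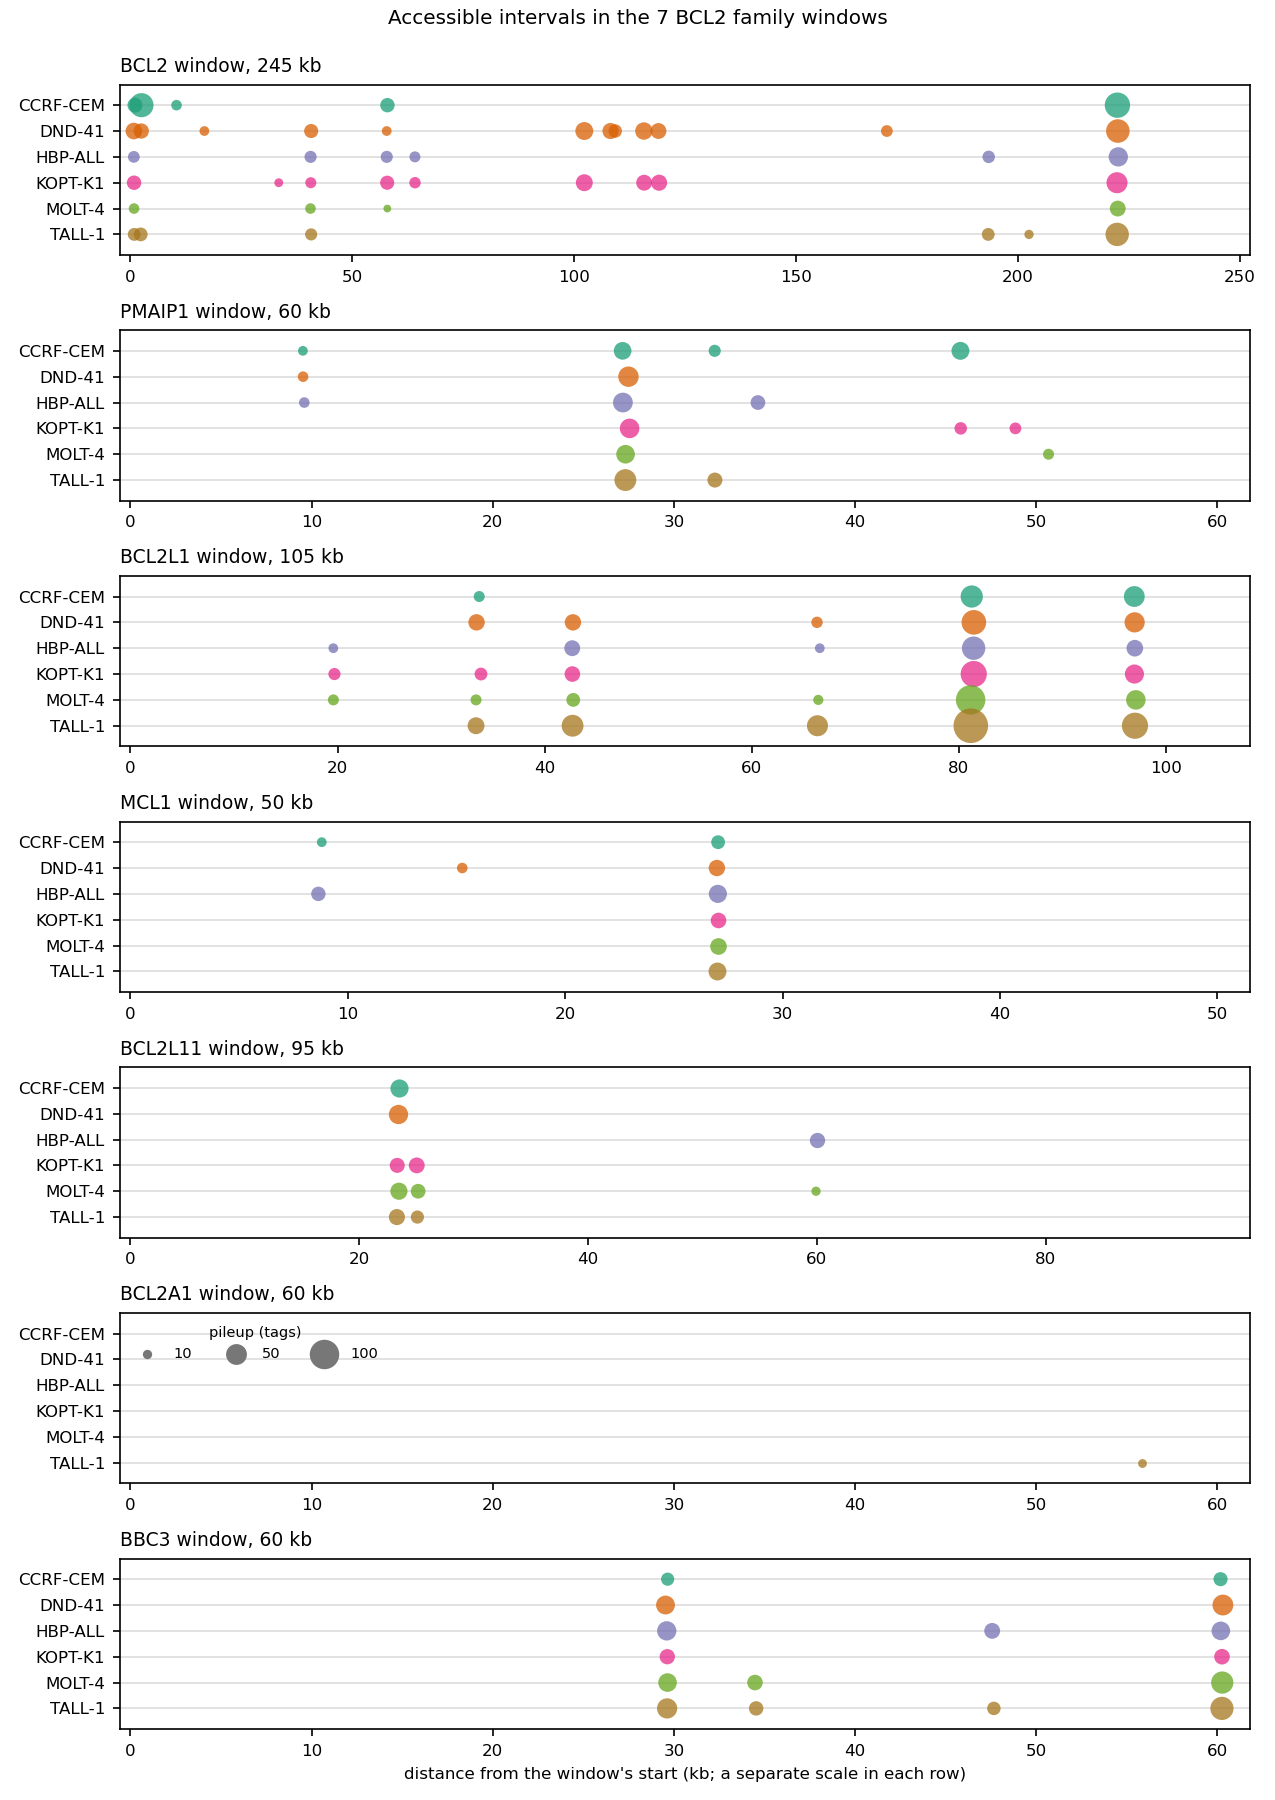
Position of every accessible interval in the 7 windows (x axis, kb from the window's start, a separate scale in each row) in each line (y axis), with the area of a point in proportion to the summit pileup in tags. The BCL2 window shows 5 points in DND-41 and 3 in KOPT-K1 near its middle where the other 4 lines have none, and the BCL2A1 window has 1 point in all.

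The BCL2 window, chr18:60765000-61010000, held 17 of the 41 regions over 245 kb, or 6.94 regions per 100 kb. The BCL2L1 window held 6 in 105 kb, the MCL1 window 3 in 50 kb and the BCL2A1 window 1 in 60 kb. Of the BH3-only genes, BCL2L11 had 3 regions in 95 kb, and PMAIP1 and BBC3 had 7 and 4 in 60 kb each. Over all 7 windows the density was 6.07 regions per 100 kb, and the mean over the genome divided into 60 kb tiles was 1.36. The BCL2A1 value was near that mean: 79.5% of 49024 such tiles held at most 1 region and 52.1% held none, whereas 3.19% held 4 or more, as the PMAIP1 window did. Tiles counted a region by its midpoint, whereas the windows counted any overlap. By midpoint 1 of the 4 BBC3 regions lay beyond its 60 kb window, at 60.25 kb.

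In all, 8 of the 41 regions had a peak in all 6 lines, 19.5% (exact binomial interval 8.82 to 34.9, which covers counting error only), against 22.6% of all 40110 regions. A further 5, or 12.2% (4.08 to 26.2), lacked a peak in exactly 1 line, against 6.53% of all regions. Regions with a peak in 1 line made up 12 of the 41, 29.3% (16.1 to 45.5), against 43.2% of all regions. Regions with a peak in 2 lines made up 11 of the 41, 26.8% (14.2 to 42.9), against 13.6% of all regions, just below the interval. Of these 11, 3 lay in 1 stretch of the BCL2 window and are not independent. The sharing of the family's regions was therefore near that of the whole genome at the shared end. The interval for single-line regions reached above the genome's value. The windows differed among themselves: BCL2 had 7 single-line regions, PMAIP1 had 3, MCL1 and BCL2A1 had 1 each, and BCL2L1, BCL2L11 and BBC3 had none.

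**Figure D2:**
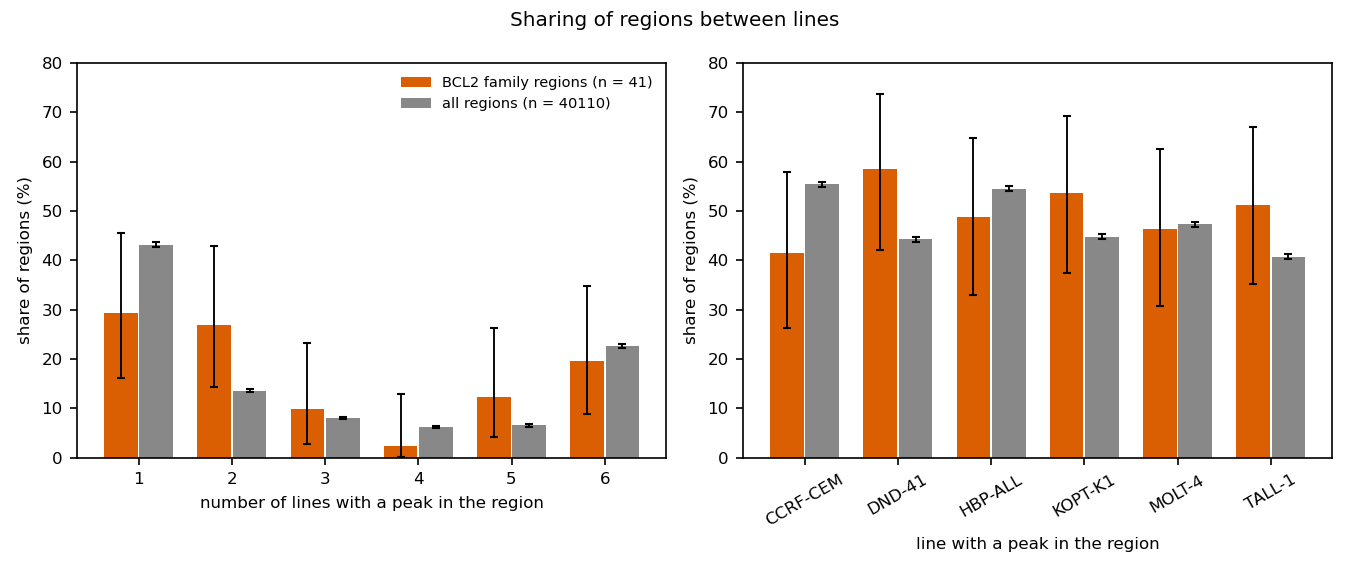
Share of regions, in percent, by the number of lines with a peak (left) and by line (right), for the 41 BCL2 family regions and for all 40110 regions, with exact binomial intervals as error bars. DND-41 had a peak in 58.5% of the family regions and CCRF-CEM in 41.5%.

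By line, DND-41 had a peak in 24 of the 41 regions (58.5%), against 44.3% of all regions, and CCRF-CEM in 17 (41.5%), against 55.4%. KOPT-K1 had 22 (53.7%, against 44.8% of all), TALL-1 had 21 (51.2%, against 40.7%), HBP-ALL had 20 (48.8%, against 54.5%) and MOLT-4 had 19 (46.3%, against 47.3%). DND-41, with 1 of the shorter lists of the series, thus had the most family peaks, and CCRF-CEM, with the longest list, had the fewest. The exact binomial intervals were 42.1 to 73.7 in DND-41 and 26.3 to 57.9 in CCRF-CEM. In every line the interval covered that line's share of all regions. The difference in count between DND-41 and CCRF-CEM lay in the BCL2 window, where DND-41 had 12 intervals and CCRF-CEM 5. Over the other 24 regions both lines had 12, while MOLT-4 and TALL-1 had 15, HBP-ALL 14 and KOPT-K1 13. In covered length the family windows held 14176 bp of peaks in DND-41, 12436 in TALL-1, 11689 in KOPT-K1, 11091 in HBP-ALL, 10828 in MOLT-4 and 9058 in CCRF-CEM.

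Heights are given as pileup, the number of tags that overlapped the interval's strongest summit, which was worked back from the authors' fold enrichment and −log10 p of each peak. Pileup rises with sequencing depth, and the median pileup at regions shared by the 6 lines ran between 31 tags in CCRF-CEM and 44 in TALL-1. The 48 family intervals in shared regions had a median pileup of 42.5 tags, with a range of 13 to 138. The 22 intervals in regions of 2 lines had a median of 25, and the 12 in single-line regions had a median of 13.5 and at most 30. A missing peak means that no interval passed the authors' threshold of about 5 on the −log10 p scale, not that the site was closed.

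**Figure D3:**
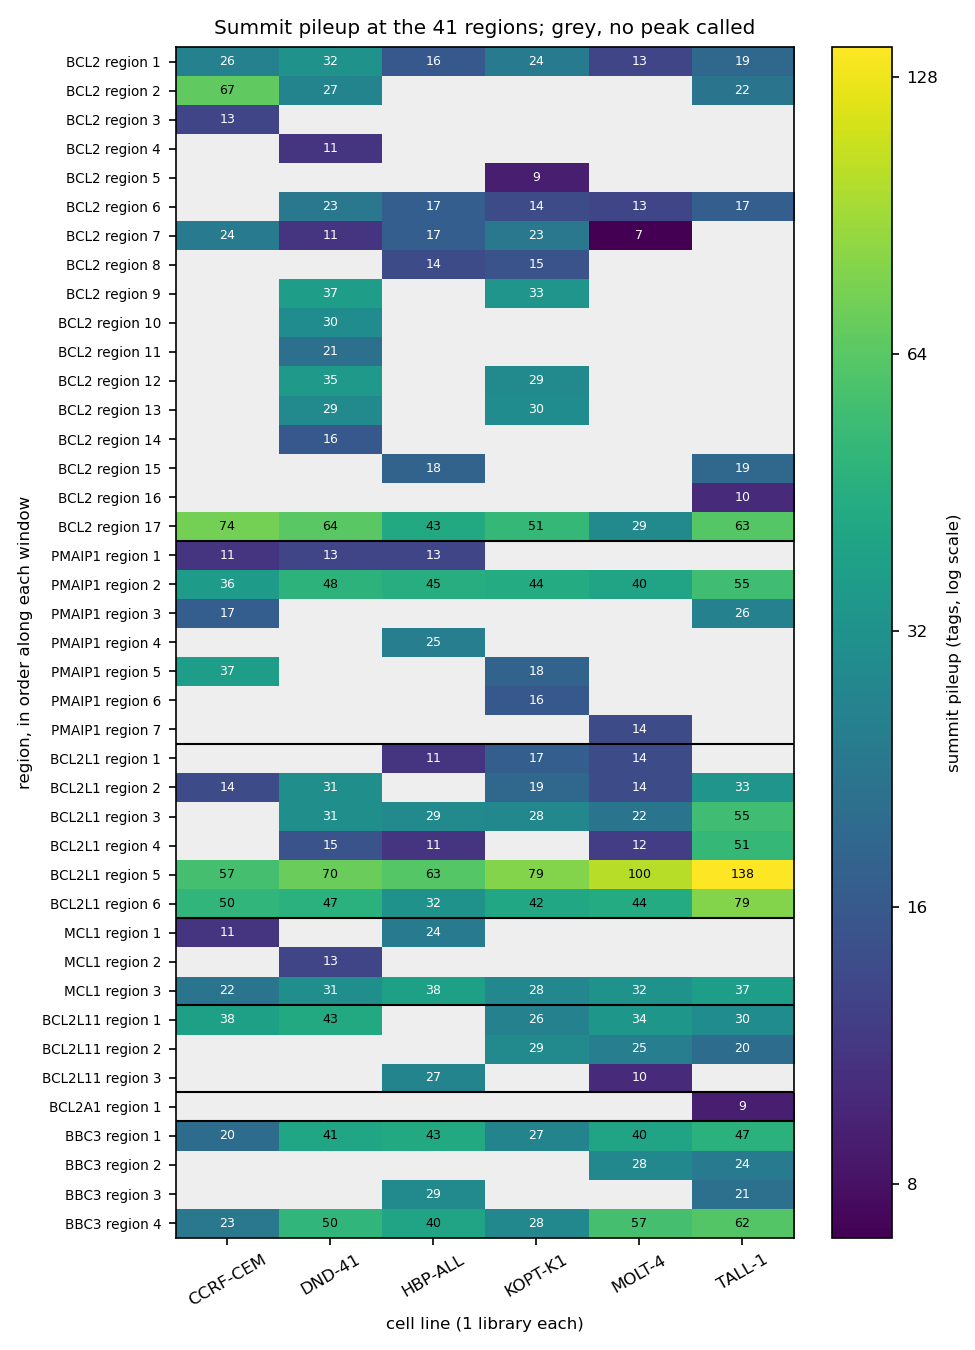
Summit pileup in tags (colour on a log scale, number in each cell) at the 41 regions (rows, in order along each window) in the 6 lines (columns), with grey where no peak was called. BCL2L1 region 5 had the highest value, 138 tags in TALL-1, and the BCL2 window has the most grey cells.

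The BCL2 window had a strong shared region near its far end and a group of regions in its middle that appeared in DND-41 and KOPT-K1 and in no other line. The shared one was BCL2 region 17, chr18:60986944-60988299, at 223 kb from the window's start. Its pileup was 74 tags in CCRF-CEM, 64 in DND-41, 63 in TALL-1, 51 in KOPT-K1, 43 in HBP-ALL and 29 in MOLT-4. CCRF-CEM was highest although its library was the shallowest, and MOLT-4 was lowest. On the relative log2 scale, which sets each line against the mean of the 6 lines and then against its own median over 9042 shared regions, CCRF-CEM stood at 0.72 and MOLT-4 at −0.76, and the other 4 between −0.29 and 0.21.

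The values moved with those of the whole chromosome. Over 133 shared regions of chromosome 18 the median relative value was −0.60 in MOLT-4 and 0.21 in CCRF-CEM. The part of that chromosome-wide difference in the BCL2 values was not tested. Once each line was centred on its own chromosome median, the highest and lowest lines at region 17 differed 1.73-fold, in place of 2.81-fold.

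BCL2 region 1, chr18:60765456-60766215, was the other shared region of that window. It had 32 tags in DND-41, 26 in CCRF-CEM, 24 in KOPT-K1, 19 in TALL-1, 16 in HBP-ALL and 13 in MOLT-4. Within 930 bp of it lay BCL2 region 2, chr18:60767146-60767815, with 67 tags in CCRF-CEM (exact Poisson interval 51.9 to 85.1), 27 in DND-41 (17.8 to 39.3) and 22 in TALL-1 (13.8 to 33.3) and no peak in HBP-ALL, KOPT-K1 or MOLT-4. CCRF-CEM had 3.20 times the next line's value there after scaling by the medians at shared regions, and 2.81 times after scaling by the chromosome's. At region 1 CCRF-CEM and DND-41 were nearly level, with relative log2 values of 0.53 and 0.52.

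The middle group, BCL2 regions 9 to 13, covered 17.4 kb at chr18:60867015-60884388. DND-41 had 5 intervals there and KOPT-K1 had 3, and CCRF-CEM, HBP-ALL, MOLT-4 and TALL-1 had 0. At region 9, chr18:60867015-60867572, the pileup was 37 tags in DND-41 and 33 in KOPT-K1. At region 12, chr18:60880599-60880956, it was 35 in DND-41 and 29 in KOPT-K1. At region 13, chr18:60883742-60884388, it was 29 in DND-41 and 30 in KOPT-K1. The lines were nearly level at all 3, and the summits lay within 12 bp, 18 bp and 97 bp of each other.

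DND-41 alone had a peak at region 10, chr18:60873078-60873305, with 30 tags, and at region 11, chr18:60874069-60874441, with 21 tags. Region 10 was the strongest single-line region of the BCL2 window by −log10 p, at 15.1. The group stood apart from the rest of the window, with 37.8 kb free of peaks in every line on one side and 50.9 kb on the other.

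The absence in the other 4 lines was set against their depth. If those lines had been as open there as DND-41 or KOPT-K1, their pileups at region 9 would have been 28.4 to 28.7 tags in CCRF-CEM, 35.8 to 36.1 in HBP-ALL, 33 to 33.3 in MOLT-4 and 40.3 to 40.7 in TALL-1. The pileups needed for a peak at the highest local background seen in each line in the window were 20 tags in CCRF-CEM, 20 in HBP-ALL, 14 in MOLT-4 and 22 in TALL-1. The scaled values were above the need in all 4 lines at regions 9, 10, 12 and 13, with either scaling. At region 11 they were not in CCRF-CEM by either scaling, and not in the other 3 lines by the chromosome's. By the chromosome's scaling the MOLT-4 values were close to its need of 14. The lowest were 18.6 tags at region 9, 15.9 at 10, 16.3 at 12 and 15.4 at 13. At the highest background of its peaks in the 7 windows MOLT-4 needed 26 tags, above these values but below those by the other scaling. TALL-1 then needed 34, against 33 and 28.2 at region 10. CCRF-CEM and HBP-ALL needed 20 and 21, below their values at these 4 regions. Regions with peaks in DND-41 and KOPT-K1 and in no other line made up 3 of the 41 family regions (7.32%), all in that group, against 1.01% of all regions. Regions in 1 stretch are not independent of each other, so the 3 count as 1 place.

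The other BCL2 regions were weaker. Region 6, chr18:60805333-60806130, had 23 tags in DND-41, 17 in HBP-ALL, 17 in TALL-1, 14 in KOPT-K1 and 13 in MOLT-4, and no peak in CCRF-CEM. The values scaled to CCRF-CEM were 11.2 to 17.8 tags and 13.1 to 21.7 by the chromosome's scaling. A peak in CCRF-CEM needed 9 tags at the lowest and 20 at the highest local background of its peaks in the window, so whether these values would have been called depends on the background at the site, which the list does not give. Region 7, chr18:60822545-60823072, had 24 tags in CCRF-CEM, 23 in KOPT-K1, 17 in HBP-ALL, 11 in DND-41 and 7 in MOLT-4, and no peak in TALL-1. Scaled to TALL-1, the lowest of these came to 8.56 tags and the highest to 34.1, and the need there ran between 9 and 22 tags. The remaining 7 regions of the window (3, 4, 5, 8, 14, 15 and 16) had peaks in 1 or 2 lines, with 9 to 19 tags.

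BCL2L1 had the strongest and most widely shared regions of the family, and TALL-1, the deepest library, had the highest pileup at 5 of the 6. Region 5, chr20:30310489-30311847, had 138 tags in TALL-1, 100 in MOLT-4, 79 in KOPT-K1, 70 in DND-41, 63 in HBP-ALL and 57 in CCRF-CEM. In TALL-1 it stood at percentile 99.1 of that line's shared regions and in MOLT-4 at percentile 98.9, and the mean over the 6 lines was 89.7. Region 6, chr20:30326653-30327431, had 79 tags in TALL-1, 50 in CCRF-CEM, 47 in DND-41, 44 in MOLT-4, 42 in KOPT-K1 and 32 in HBP-ALL. Its 6 summits lay within 22 bp, against a median range of 123 bp over all shared regions.

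Here too the order of the lines moved with the chromosome. The median of 222 shared regions of chromosome 20 was 0.55 in TALL-1 and 0.26 in MOLT-4, beside relative values of 0.56 and 0.38 at region 5. In CCRF-CEM the chromosome stood at −0.25 and region 5 at −0.29. After centring on the chromosome the lines differed 1.27-fold at region 5, at percentile 2.60 of spread among all shared regions, so that this region was among the more even ones on that scale. At region 6 they still differed 1.92-fold: CCRF-CEM had 1.72 times its chromosome median there and HBP-ALL 0.889 times. The part of the chromosome-wide difference in the TALL-1 values was not tested.

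The widest range between lines in the BCL2L1 window, 4.11-fold by the medians at shared regions and 2.83-fold by the chromosome's, was at region 4. This region, chr20:30296074-30296750, had 51 tags in TALL-1 (exact Poisson interval 38.0 to 67.1), 15 in DND-41 (8.40 to 24.7), 12 in MOLT-4 (6.20 to 21.0) and 11 in HBP-ALL (5.49 to 19.7), and no peak in CCRF-CEM or KOPT-K1. In raw tags TALL-1 stood above the others, whose intervals overlapped each other. These intervals were not scaled for depth or chromosome, and the median pileup at shared regions of chromosome 20 was 66 tags in TALL-1 and 35 in DND-41. The TALL-1 value was 3.09 times the next line's after scaling by the medians at shared regions and 1.80 times after scaling by the chromosome's.

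Region 3, chr20:30272137-30273273, had 55 tags in TALL-1 and 22 in MOLT-4, with DND-41 at 31, HBP-ALL at 29 and KOPT-K1 at 28, and no peak in CCRF-CEM. Scaled to CCRF-CEM these came to 18.9 to 38.8 tags, and to 14.5 to 25.7 by the chromosome's scaling, where the need ran between 9 and 15 tags over the backgrounds of its peaks in the window. Region 2, chr20:30262838-30264021, had 33 tags in TALL-1, 31 in DND-41, 19 in KOPT-K1, 14 in CCRF-CEM and 14 in MOLT-4, and no peak in HBP-ALL. Scaled to HBP-ALL these came to 15.2 to 30.2 tags, or 11.5 to 31.9 by the chromosome's scaling, and the need ran between 10 and 21 tags. Region 1, with 11 to 17 tags in HBP-ALL, KOPT-K1 and MOLT-4, completed the window.

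MCL1 had 1 shared region and little else. Region 3, chr1:150551615-150552360, had 38 tags in HBP-ALL, 37 in TALL-1, 32 in MOLT-4, 31 in DND-41, 28 in KOPT-K1 and 22 in CCRF-CEM. The lines were close once scaled: the highest and lowest differed 1.47-fold, at percentile 8.21 of spread among all shared regions, and 1.48-fold after centring on chromosome 1. The region was of moderate height, at percentile 36.7 on the mean of the 6 lines, against 89.7 for BCL2L1 region 5. MCL1 region 2, chr1:150540093-150540430, had a peak in DND-41 alone, with 13 tags, and region 1 had 11 tags in CCRF-CEM and 24 in HBP-ALL.

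BCL2A1 was nearly bare. Its 60 kb window, chr15:80230000-80290000, held 1 interval in TALL-1, at chr15:80285681-80285957, and 0 in the other 5 lines. That peak had 9 tags (exact Poisson interval 4.12 to 17.1) and a −log10 p of 5.12, just above the authors' threshold. As background, the gene is an NF-κB target known from activated lymphocytes and myeloid cells, and its RefSeq start is the CpG-poor stretch printed above, with 2 CpG. The BBC3 stretch held 4 CpG, and the BBC3 window held 4 regions. Whether cell type or CpG content bears on the number of regions was not tested.

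BCL2L11 was the only window with peaks in every line and no region shared by all 6, and the line that stood apart was HBP-ALL. Region 1, chr2:111877925-111878871, had 43 tags in DND-41, 38 in CCRF-CEM, 34 in MOLT-4, 30 in TALL-1 and 26 in KOPT-K1, and no peak in HBP-ALL. Scaled to HBP-ALL, these came to 26.6 to 47.8 tags, and to 28.1 to 38.7 by chromosome 2, whereas 11 tags were needed at the local background of its own peak in the window. Region 2, chr2:111879830-111880344, lay 958 bp further on and had 20 tags in TALL-1, 25 in MOLT-4 and 29 in KOPT-K1.

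The nearest HBP-ALL peak was 35875 bp away from region 1. It was region 3, chr2:111914746-111915190, with 27 tags in HBP-ALL (exact Poisson interval 17.8 to 39.3) and 10 in MOLT-4 (4.80 to 18.4) and no peak in the other 4 lines. HBP-ALL thus had its 1 BCL2L11 peak where 4 of the lines had none, and none where the other 5 had theirs. The background behind the need of 11 tags was taken at region 3, and the background at region 1 in HBP-ALL could be higher. At the highest background of any HBP-ALL peak in the 7 windows the need was 21 tags, still below the scaled values.

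PMAIP1 had the most even shared region of the family. Region 2, chr18:57566698-57568280, had 55 tags in TALL-1, 40 in MOLT-4 and 36 in CCRF-CEM, with DND-41 at 48, HBP-ALL at 45 and KOPT-K1 at 44. The exact Poisson intervals of all 6 overlapped, with 25.2 to 49.8 in CCRF-CEM and 41.4 to 71.6 in TALL-1. On the relative log2 scale the lines lay between −0.09 and 0.09, a 1.14-fold range, which was rank 5 in evenness among 9042 shared regions. That evenness depended on the scale. MOLT-4 was at −0.08 there although its chromosome 18 median was −0.60, and after centring on the chromosome the range was 1.77-fold, at percentile 44.3. MOLT-4 was then the highest line, at 1.48 times its chromosome median, while at BCL2 region 17, on the same chromosome, it had 1.07 times.

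The region was not equally wide in all lines. The joined interval measured 1583 bp with 3 summits in DND-41 and 1457 bp with 4 summits in KOPT-K1, and 669 to 1091 bp in the other 4. Around it were 6 regions of 1 to 3 lines. Region 4, chr18:57574467-57574802, was the strongest of the single-line ones, with 25 tags in HBP-ALL. Region 5, chr18:57585610-57586014, had 37 tags in CCRF-CEM and 18 in KOPT-K1. Regions 1, 3, 6 and 7 had 11 to 26 tags.

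BBC3 had a shared region in its middle and another at its far edge. Region 4, chr19:47759735-47760765, had 62 tags in TALL-1, 57 in MOLT-4 and 50 in DND-41, while HBP-ALL had 40, KOPT-K1 28 and CCRF-CEM 23, and its strongest summit lay just beyond the window's end in all 6 lines. Region 1, chr19:47729281-47729963, had 47 tags in TALL-1, 43 in HBP-ALL, 41 in DND-41, 40 in MOLT-4, 27 in KOPT-K1 and 20 in CCRF-CEM. CCRF-CEM and KOPT-K1 were the lowest lines at both. The same held for chromosome 19 as a whole, where the median of 456 shared regions was −0.68 in CCRF-CEM and −0.26 in KOPT-K1, against 0.46 in MOLT-4 and 0.37 in TALL-1. After centring on the chromosome the lines differed 1.35-fold at region 1 and 1.53-fold at region 4, in place of 1.83-fold and 2.25-fold.

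The other BBC3 regions were shared by pairs of lines that included TALL-1. Region 2, chr19:47734290-47734657, had 28 tags in MOLT-4 and 24 in TALL-1, and region 3, chr19:47747375-47747778, had 29 in HBP-ALL and 21 in TALL-1.

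**Figure D4:**
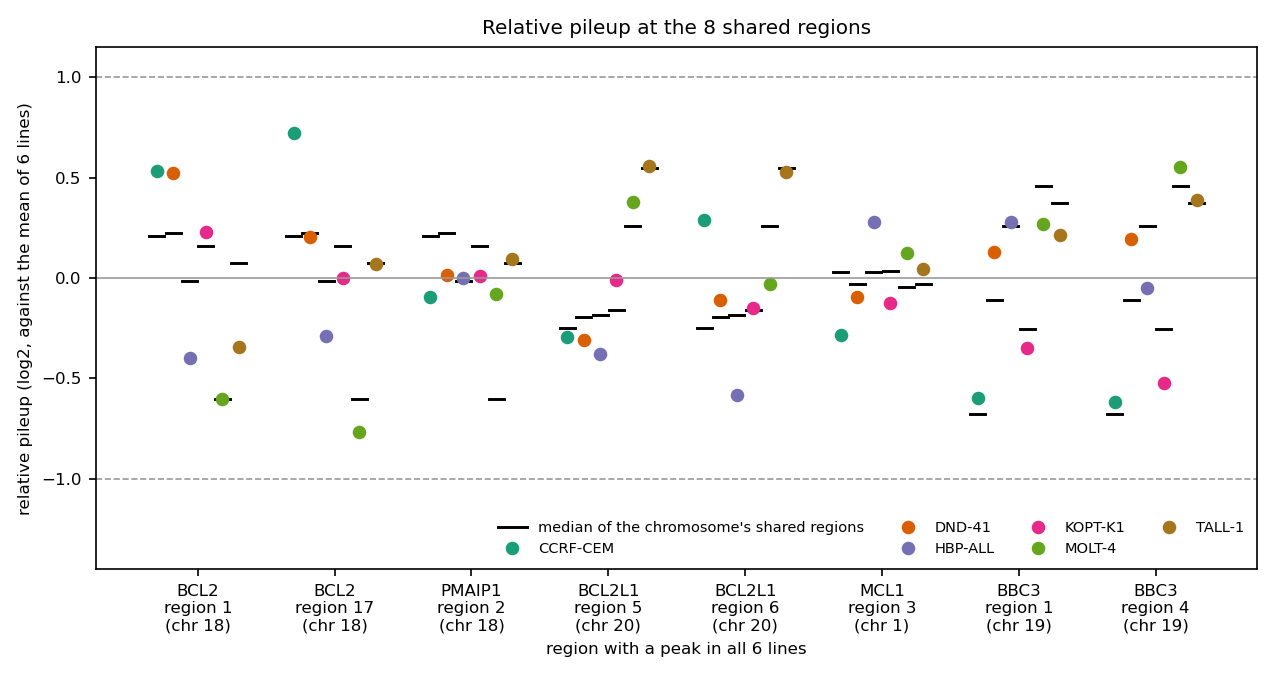
Relative pileup (log2, each line set against the 6-line mean and centred on its own median over shared regions) at the 8 shared family regions, 1 point per line, with a black dash at the line's median over all shared regions of the same chromosome. All points lie within the dashed lines of 2-fold, and at BCL2L1 region 5 and BBC3 region 1 the points follow the dashes.

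Across the 8 shared regions none of the 48 pairs of region and line was beyond 2-fold of the mean, against 2.5% of 54252 pairs over all shared regions. The median relative value over the 8 was 0.15 in TALL-1, 0.07 in DND-41, 0.05 in MOLT-4, −0.07 in KOPT-K1, −0.17 in HBP-ALL and −0.19 in CCRF-CEM. The median spread between highest and lowest line was 2.04-fold for the family and 2.08-fold for all shared regions, so the heights of shared family regions varied about as much as elsewhere. The strongest summits of the 8 regions varied by a median of 244 bp between lines, against 123 bp over all shared regions. Of the 48 intervals in these 8 regions 24 held several summits (50%), against 16.4% of all intervals, shared or not. Lines can thus differ in which summit was strongest, and the share of the range that comes from this was not tested.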

How the data were processed

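The 6 libraries, 1 per cell line, were analysed from narrowPeak lists. Per the submitters' processing notes, the build was hg19 and the tools named were Bowtie2, Picard, SAMtools and MACS2 2.1.1.2016030. The roles and settings of these tools were not given in the sources used here. Each deposited entry holds the authors' fold enrichment (a ratio), −log10 p, −log10 q, summit offset and a score of 10 times the −log10 p. All are the authors' own values per peak. The −log10 values depend on depth and were compared between lists only to pick the strongest single-line region of a window. The lists hold no read totals, so depth is inferred only from the recovered pileups and local backgrounds. Relative tag depth was each line's lowest recovered background divided by the width of its shortest interval, set against CCRF-CEM. It was 1 in CCRF-CEM and highest in TALL-1, at 2.10.

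Entries of a list that shared 1 interval were joined and given the strongest summit. Intervals of chromosomes 1 to 22 and X were merged across lines at an overlap of at least 1 bp. Pileup and local background were solved from the deposited fold and −log10 p under a Poisson model within 0.001, which recovered 99.9% or more of 139512 summits and all those of the family. The procedure was tested on simulated peaks. Relative pileup was centred on each line's median over 9042 shared regions, or on its chromosome's. Depth was judged with exact binomial (Clopper-Pearson) and exact Poisson intervals of 95%, which cover counting error only. Calculations used Python 3.11.15 with numpy 2.4.6, pandas 2.3.3, scipy 1.17.1 and matplotlib 3.10.9.

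The 7 genes, windows and lists were chosen with earlier results of these data known. Regions named with a value in every line were, per window, the shared region of highest mean rank, regions beyond 2-fold, regions missed by exactly 1 line, and the strongest single-line region; BCL2 regions 1, 2, 9, 11, 12 and 13, BCL2L1 regions 1, 4 and 6 and the other regions of MCL1, BCL2L11, PMAIP1 and BBC3 were added after their values were seen. The scaled pileups where a line lacked a peak, the 60 kb tiles, the CpG counts and the summit ranges were also added then. Other family genes and marker genes of T cells and other lineages were not analysed here, because no annotation of the build was used, so the labelled cell type was not checked.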

Additional observations from a re-analysis of the deposited data

How the results depend on the processing

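Of 86 alternatives computed, 79 left a count within 1.5 times or a median within the range of the shared family regions, and 7 moved it. A reversal could be called only for a median beyond 2-fold. No median was, so the result of 0 reversed was fixed in advance. With a stricter −log10 p of at least 10 the intervals in the windows fell to 11 in CCRF-CEM and 9 in MOLT-4, and with equal numbers of the strongest peaks per line to 11 in CCRF-CEM. Windows widened by 50 kb on each side held 16 regions shared by all 6 lines, 28 intervals in CCRF-CEM and 33 in HBP-ALL. Scaling by relative tag depth put 1 shared pair of region and line beyond 2-fold. The number of BCL2 regions with peaks in DND-41 and KOPT-K1 and no other line was 3 under each of 5 alternatives. This count was added after seeing the data, while the 5 alternatives had been planned for other results. The peaks at these 3 regions had −log10 p of 13.7 to 26.7 and lay 102 to 119 kb into the 245 kb window. The stricter threshold and the changes of window could therefore not have removed them, and the unchanged count is no check of the pattern. With the strongest summit required inside the window, 40 regions were left, 7 of them shared by all 6 lines. The median relative pileup of the family regions ran between −0.22 and 0.25 in CCRF-CEM, −0.04 and 0.07 in DND-41, −0.46 and −0.12 in HBP-ALL, −0.12 and 0.01 in KOPT-K1, −0.03 and 0.19 in MOLT-4 and −0.05 and 0.26 in TALL-1 over the alternatives, so HBP-ALL alone kept its sign in all of them. No paired analysis was possible because each line has 1 library and the labels give no replicate numbers shared between lines. Regions in low-depth libraries can be missed, but the lengths of the lists do not show it. CCRF-CEM, the shallowest library, had peaks called from 6 tags upward and the longest list, with 22367 intervals. TALL-1, the deepest, had peaks called from 9 tags upward and 16507 intervals. The 10 values over 6 lines that were examined for an outlying line (8 shared regions, intervals per line and covered length) gave 0 beyond Dixon's critical ratio.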
